A study of Caenorhabditis elegans with 6 samples.

Results

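The annular furrow collagens are a group of 6 cuticle collagen genes of the nematode Caenorhabditis elegans, dpy-2, dpy-3, dpy-7, dpy-8, dpy-9 and dpy-10. They were found by symbol in the deposited gene table, which lists 47656 genes, and all 6 were present and abundant enough to test. Poly(A) RNA of whole wild-type worms was sequenced from 3 ilimaquinone libraries and 3 vehicle libraries. Ilimaquinone, a quinone from marine sponges, was present at 100 µM in the first group and absent from the second. Worms of both groups were otherwise kept alike, at 20 °C in complete S-Basal buffer. The buffer held 200 µM FUDR, which stops reproduction by blocking DNA synthesis, and 100 µg/mL ampicillin. The exposure began at the L4 larval stage and lasted 11 days, so the animals were adults when collected. Separate cultures behind the replicates are not stated in the labels, and the p-values given here therefore cover only the variation among these 6 libraries, which may be technical.

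The cuticle of the worm is a layered collagen coat that the epidermis secretes anew at each moult. Circumferential furrows divide its surface into rings, and the 6 collagens described here are needed to form them: loss of any single one removes the furrows and leaves a short, fat animal, the Dumpy phenotype. Loss of these collagens is also known to switch on the glycerol response to osmotic stress, the SKN-1 detoxification response and epidermal antimicrobial peptides, which makes the furrow a candidate sensor of cuticle damage. In larvae, cuticle collagen genes are transcribed in waves that recur with the moulting cycle, and the furrow collagens form an early wave. Collagen chains are hydroxylated in the endoplasmic reticulum, pass through the Golgi, are trimmed by proteases and are cross-linked outside the cell.

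The libraries held 32155192 to 39244786 estimated counts, and 16506 of 27237 genes with a count passed the filter on low counts. Along the first principal component of log2 values (57.6% of the variance) vehicle replicate 1 was set off from the rest: the ilimaquinone libraries lay between -54.1 and -25.1, and the vehicle libraries at 98.8, -0.128 and 26.5 for replicates 1, 2 and 3. Germline and oocyte markers moved with it, since the summed level of 20 such genes was 471 to 710 CPM (counts scaled to library size) with ilimaquinone and 882 to 3549.8 CPM with vehicle, where replicate 1 was highest and replicates 2 and 3 had 882 and 1070.2 CPM. Markers of muscle, intestine and neurons were detected in every library. The median log2 fold change of all tested genes was -0.02.

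All 6 furrow collagens were transcribed in both groups, at low to moderate levels. On the deposited TPM scale, which corrects for transcript length, their summed level was 134, 223 and 243 TPM in ilimaquinone replicates 1, 2 and 3, against 106, 204 and 45.6 TPM in vehicle replicates 1, 2 and 3. The means were 200.2 ± 58.1 TPM with ilimaquinone and 119 ± 80.1 TPM with vehicle (SD, n = 3 each). The groups overlapped, because vehicle replicate 2 lay above ilimaquinone replicate 1, and the most distant library was vehicle replicate 3, at the bottom of the vehicle range. RNA of whole animals cannot tell apart fewer epidermal cells and less RNA per cell.

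Among the 6 genes, dpy-9 had the highest length-corrected level in every library. It encodes one of the collagens without which furrows are lost (gene 176846, chromosome IV, 257384 to 259204, minus strand, 4 exons, build WBcel235). Its level was 46.4, 68.3 and 84.1 TPM with ilimaquinone, against 31.9, 72.3 and 21.7 TPM with vehicle. Vehicle replicate 2 was thus above ilimaquinone replicates 1 and 2, and the other vehicle libraries were below all 3. The gene has a pair of deposited transcripts, and NM_067488 carried 97.0% to 98.6% of its TPM in the 6 libraries.

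The next 3 genes had nearly the same level, with means over the 6 libraries of 24.97 TPM for dpy-2, 24.5 TPM for dpy-3 and 24.5 TPM for dpy-7. dpy-2 (gene 174107, chromosome II, 6714292 to 6715991, plus strand, 5 exons) had 21.4, 34.5 and 37.1 TPM with ilimaquinone, against 19.2, 31.5 and 6.11 TPM with vehicle. dpy-3 (gene 180529, chromosome X, 2144599 to 2145647, minus strand, 2 exons) had 20.0, 36.9 and 40.4 TPM with ilimaquinone, against 15.9, 29.1 and 4.58 TPM with vehicle. dpy-7, whose promoter is widely used to drive transgenes in the epidermis (gene 181013, chromosome X, 7536465 to 7538208, minus strand, 2 exons), had 19.3, 33.5 and 37.7 TPM with ilimaquinone, against 18.6, 31.99 and 5.69 TPM with vehicle. In all 3 genes vehicle replicate 3 was the lowest library and ilimaquinone replicate 3 the highest, and vehicle replicate 2 fell among the ilimaquinone libraries. Their mutual order changed from library to library, so no order among dpy-2, dpy-3 and dpy-7 is given.

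The remaining 2 genes were lower. dpy-8 (gene 180785, chromosome X, 5148804 to 5150476, minus strand, 4 exons) had 13.8, 27.8 and 28.6 TPM with ilimaquinone, against 13.7, 18.2 and 3.37 TPM with vehicle. dpy-10, best known to geneticists because its edited alleles serve as a visible marker in genome editing (gene 36805042, chromosome II, 6710149 to 6712928, minus strand, 5 exons), had 13.1, 22.4 and 15.2 TPM with ilimaquinone, against 6.81, 21.4 and 4.11 TPM with vehicle. dpy-8 was below dpy-2, dpy-3 and dpy-7 in all 6 libraries. dpy-10 was the lowest member in 4 libraries, and dpy-8 was lower in vehicle replicates 2 and 3. dpy-10 and dpy-2 lie side by side on chromosome II, 1363 bases apart and on opposite strands, while the other 4 members are scattered over chromosomes IV and X.

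**Figure D1:**
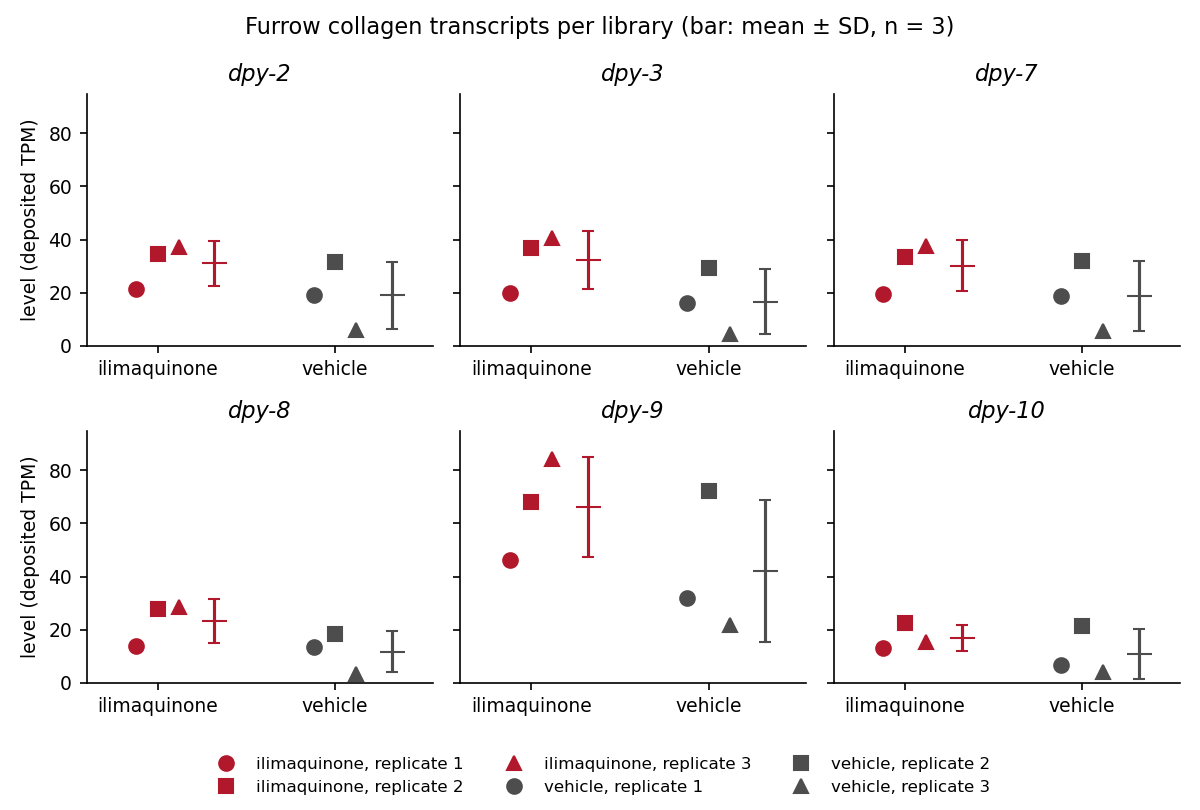
Deposited TPM of the 6 furrow collagens in a panel each, with 1 point per library, ilimaquinone left of vehicle, and bars for the group mean ± SD (n = 3). The points of the groups overlap for every gene, dpy-9 sits highest in each library, and vehicle replicate 3 is the lowest point for all 6 genes.

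A few neighbouring annotations bear on these values. The deposited locus of dpy-7 shares 400 bases with glb-16 on the same strand, and glb-16 itself was low, at 3.21 CPM with ilimaquinone and 2.82 CPM with vehicle. The deposited ends of dpy-7 and dpy-10 lie 416 and 701 bases past those of the Ensembl annotation. dpy-8 shares 90 bases with C31H2.14, which was too low to test and lies on the opposite strand. The case of dpy-10 is larger and is described with its neighbour T14B4.19 further on. Whether counting used the strand is not stated. Of the genes named below, dpy-4, col-19, gpdh-1, gpdh-2, osm-8, nit-1, skn-1, wdr-23 and nlp-29 also overlap other tested genes in their deposited loci. So do tir-1, sta-2, lin-29, pat-12, col-46, lpr-5 and K08B12.1. For nlp-29 the overlapping genes are nlp-34 and nlp-30.

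The comparison of ilimaquinone with vehicle asks whether the compound changed these genes. The test was the quasi-likelihood test of edgeR across all genes, adjusted by Benjamini-Hochberg and named edgeR below, and none of the 6 furrow collagens reached an adjusted p under 0.05: 0 of 6 were called, against 1.47% of the 16506 tested genes. At an unadjusted p under 0.05 the count was again 0 of 6, against 21.9% of tested genes, and DESeq2, which called 10.5% of its tested genes, called 0 of 6. In 0 of 6 members did all ilimaquinone libraries lie on the same side of all vehicle libraries, as they did for 30.8% of tested genes. The fitted log2 fold change was positive for 6 of 6 members, with a median of 0.69, and for 48.0% of tested genes. Since the members share libraries and vary together, those 6 signs are not 6 separate observations. The shares of all tested genes given here are also the background for the counts of the gene lists below. Those lists were chosen with earlier results of these data known, so a count above its background is no independent evidence.

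The largest fitted difference was that of dpy-8. It averaged 28.4 ± 9.94 CPM with ilimaquinone and 14.2 ± 9.34 CPM with vehicle (SD, n = 3 each), which is 1.00 ± 0.56 as log2 fold change with its SE (edgeR adjusted p = 0.329). Its 95% interval ran from -0.34 to 2.33, so that neither no difference nor a 4-fold higher level with ilimaquinone lay outside it. dpy-3 gave 0.96 ± 0.60 (edgeR adjusted p = 0.367). The smallest was that of dpy-10, at 0.61 ± 0.59, with a 95% interval from -0.78 to 2.01 (edgeR adjusted p = 0.55).

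The other 3 members lay between. The log2 fold change was 0.71 ± 0.53 for dpy-2, 0.68 ± 0.56 for dpy-7 and 0.64 ± 0.46 for dpy-9, with edgeR adjusted p-values of 0.443, 0.488 and 0.427. The intervals of all 6 members overlap one another almost completely, and no member can be set apart from the others by its difference. None of these p-values shows that the levels were alike, because differences of 2-fold and more lie within every interval.

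**Figure D2:**
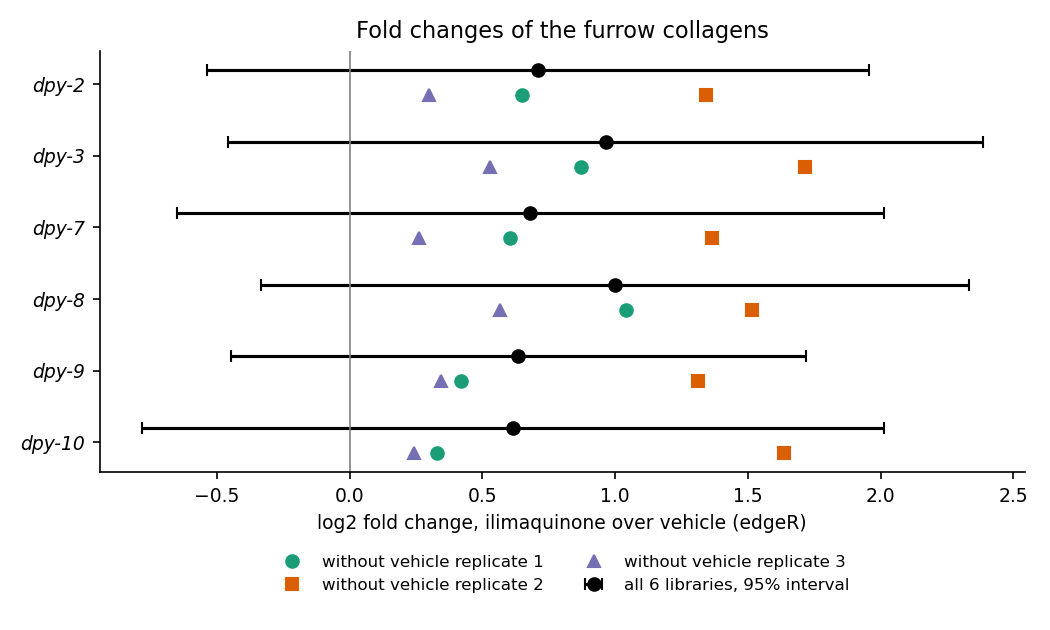
Log2 fold change, ilimaquinone over vehicle, of each furrow collagen with its 95% interval from edgeR, beside the value with each vehicle library left out. All 6 intervals cross 0, and the values without vehicle replicate 2, at 1.31 to 1.71, lie right of the values without vehicle replicate 3, at 0.24 to 0.57.

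These differences depended on single libraries. Without vehicle replicate 2 the log2 fold changes were 1.31 to 1.71, 6 of 6 members had an unadjusted p under 0.05, and the edgeR adjusted p-values were 0.0671 to 0.157. Without vehicle replicate 3 they were 0.24 to 0.57. Without vehicle replicate 1, the library that stood apart in the germline genes, they were 0.33 to 1.04. Leaving out ilimaquinone replicate 1, 2 or 3 gave 0.77 to 1.27, 0.38 to 0.88 or 0.41 to 0.81. In none of these 6 fits did a member pass the test or change its sign. The share of all tested genes called there was 4.31%, 0.836% and 0.673% without vehicle replicates 1, 2 and 3, and 0.106%, 0.141% and 0.0648% without ilimaquinone replicates 1, 2 and 3.

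The spread that sets these intervals lay mostly within the vehicle group. The highest vehicle library had 4.91 times the CPM of the lowest for dpy-2, 6.04 times for dpy-3, 5.35 times for dpy-7 and 5.14 times for dpy-8. It had 3.18 times for dpy-9 and 4.94 times for dpy-10. For every member the highest was vehicle replicate 2 and the lowest vehicle replicate 3. A vehicle spread as large as that of dpy-3 was found in 3.60% of tested genes, and one as large as that of dpy-9 in 13.9%.

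With ilimaquinone the spread was smaller: the highest library had 1.66 to 2.06 times the CPM of the lowest across the 6 members. The gene-wise biological coefficient of variation, the relative spread between libraries of a group beyond counting error, was 39.3% for dpy-9 and 45.0% to 50.7% for the other 5, against 28.4% for all genes in common. Each member had at least 122 counts in every library, so that counting error is small beside this spread. A difference in spread between the groups was not tested with 3 libraries each.

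Which libraries were high was nearly the same for every member. For dpy-2, dpy-3 and dpy-8 the order by CPM, from high to low, was ilimaquinone replicates 3 and 2, vehicle replicate 2, ilimaquinone replicate 1 and vehicle replicates 1 and 3. For dpy-7 and dpy-9 vehicle replicate 2 moved up by 1 place. For dpy-10 vehicle replicate 2 was the highest of the 6 libraries, followed by ilimaquinone replicates 2, 3 and 1. The top places are close, and by TPM ilimaquinone replicate 2 was above vehicle replicate 2 for dpy-7 and dpy-10. Vehicle replicates 1 and 3 were the lowest libraries for all 6 genes.

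The members therefore correlated with each other across the 6 libraries. Over 15 pairs, Pearson's r of log2 CPM was 0.859 to 0.999 and Spearman's rho 0.771 to 1, with exact permutation p-values, adjusted over the 15 pairs, of 0.00521 to 0.0167 for r and 0.0104 to 0.103 for rho (two-sided). Part of such an r can come from a shared difference between the groups, but r of the deviations from each group's mean was again 0.794 to 1.00. The libraries share depth and composition for all genes, so these values describe the libraries and say nothing of the mechanism.

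Among the pairs, dpy-2, dpy-3, dpy-7 and dpy-8 formed a tight set, which was not fixed in advance. Their 6 pairs had r of 0.984 to 0.999, and with the 2 libraries farthest from the median left out, r was still 0.88 to 0.997. The 9 pairs that include dpy-9 or dpy-10 had r of 0.859 to 0.938, and 0.468 to 0.978 without the 2 farthest libraries. The low end came from dpy-10, whose r with dpy-2, dpy-3, dpy-7 and dpy-9 was 0.468 to 0.578 there, so that these 4 relations rest largely on the 2 libraries left out, vehicle replicates 1 and 3. For dpy-9 the corresponding r was 0.963 with dpy-2, 0.908 with dpy-3 and 0.978 with dpy-7, within the range of the tight set. With dpy-8 it was 0.807, but there the libraries left out were ilimaquinone replicate 3 and vehicle replicate 3.

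The composition of the group also varied, but it comes from the same libraries and is no separate evidence for a split. Within the tight set, the share of dpy-8 in the summed TPM ran from 7.39% in vehicle replicate 3 to 12.9% in vehicle replicate 1. dpy-9 made up 34.6%, 30.6% and 34.6% of the summed furrow collagen TPM with ilimaquinone, against 30.04%, 35.3% and 47.7% with vehicle. Its share was highest in vehicle replicate 3, where the other members were lowest. dpy-10 made up 9.78%, 10.04% and 6.24% with ilimaquinone, against 6.42%, 10.5% and 9.02% with vehicle, and its 2 low shares, in ilimaquinone replicate 3 and vehicle replicate 1, fell in 1 library of each group. From vehicle replicate 3 to vehicle replicate 1, the CPM of dpy-9 and dpy-10 differed by 1.22 and 1.37 times, while the other 4 members differed by 2.61 to 3.35 times.

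The counts of dpy-10 cannot be separated from those of its neighbour T14B4.19. The 2 genes lie on the same strand, their deposited loci coincide to within a few bases (6710149 to 6712928 for dpy-10 and 6710144 to 6712932 for T14B4.19), and in the Ensembl annotation 3 of the 5 exons of each are identical. In that annotation the 780 shared bases are 49.0% of the 1593 exon bases of dpy-10 and 94.8% of the 823 of T14B4.19. The deposited transcripts differ from it, with 1624 bases for dpy-10 and 1633 bases for T14B4.19. How many exon bases the deposited transcripts share was not determined, and it may be more. The sources do not state how reads on shared exons were divided, so the values of both genes are uncertain.

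dpy-10 had 669, 932 and 730 counts with ilimaquinone, against 282, 988 and 184 with vehicle. T14B4.19 had 103, 282 and 577 counts with ilimaquinone, against 317, 155 and 30 with vehicle. dpy-10 thus took 86.7%, 76.8% and 55.9% of the joint counts with ilimaquinone, against 47.1%, 86.4% and 86.0% with vehicle. The 2 libraries in which its share was lowest are those in which it fell short of the other members.

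The joint counts followed the other members more closely than either gene did. They were 772, 1214 and 1307 with ilimaquinone, against 599, 1143 and 214 with vehicle. Across the 6 libraries, Pearson's r with the mean of the other 5 members was 0.911 for dpy-10, 0.803 for T14B4.19 and 0.994 for their sum, given as a description. With the counts of both added into 1 gene, an alternative chosen after the data were seen, the log2 fold change was 0.69 and the edgeR adjusted p was 0.466, so the gene was again not called. For T14B4.19 by itself the log2 fold change was 0.89 ± 0.85 (edgeR adjusted p = 0.545).

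**Figure D3:**
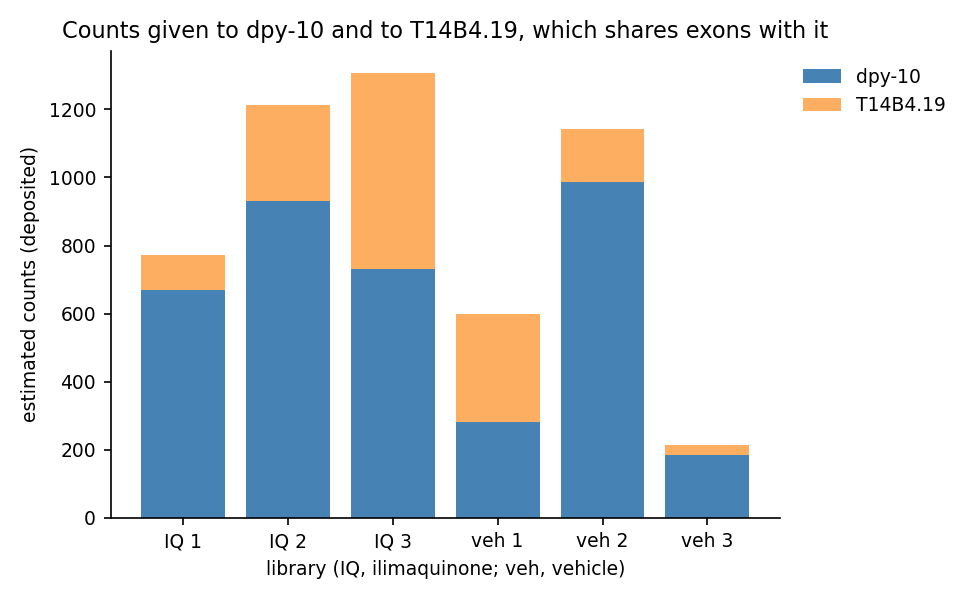
Estimated counts of dpy-10 and T14B4.19, stacked to their sum, in each library, ilimaquinone left and vehicle right. The division between the 2 genes varies, with dpy-10 at 47.1% in vehicle replicate 1 and 86.4% in vehicle replicate 2, while the joint counts run from 214 in vehicle replicate 3 to 1307 in ilimaquinone replicate 3.

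Genes with the library pattern most like that of the furrow collagens were sought with Pearson's r between a gene's log2 CPM and the mean standardised profile of the 6 members, over 6 libraries and 14047 genes with a mean of at least 1 CPM. The 8 highest were H42K12.3, an uncharacterized protein (r = 0.999), the collagen gene col-46 (0.998), lin-42, the worm counterpart of the clock gene period, which paces the larval moults (0.997), and mlt-11, which encodes a putative protease inhibitor needed for moulting (0.996). They were followed by lpr-5, a lipocalin-related gene (0.996), the collagen gene col-128 (0.994), mlt-8, another gene needed for moulting (0.993), and K08B12.1, which encodes a protein with a lipase domain (0.993). In all 8 the groups overlapped and 0 of 8 were called in edgeR, while 30.8% of tested genes did not overlap and 1.47% were called. Both follow from choosing genes by the members' profile, in which the groups overlap, and are no separate result. The median r of the compared genes was 0.05, and 364 of them, or 2.59%, had an r over 0.9.

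The levels show how close the likeness is. lin-42 had 32.3, 61.7 and 55.0 CPM with ilimaquinone, against 22.3, 54.4 and 9.89 CPM with vehicle. mlt-11 had 122, 190 and 212 CPM with ilimaquinone, against 91.3, 165 and 45.5 CPM with vehicle. Both were lowest in vehicle replicate 3 and close to the ilimaquinone libraries in vehicle replicate 2. Which genes lead the ranking depends on the members used: ranked by dpy-3 alone 4 of these 8 were again among the first 8, and ranked by dpy-8, dpy-9 or dpy-10 alone 0 were.

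**Figure D4:**
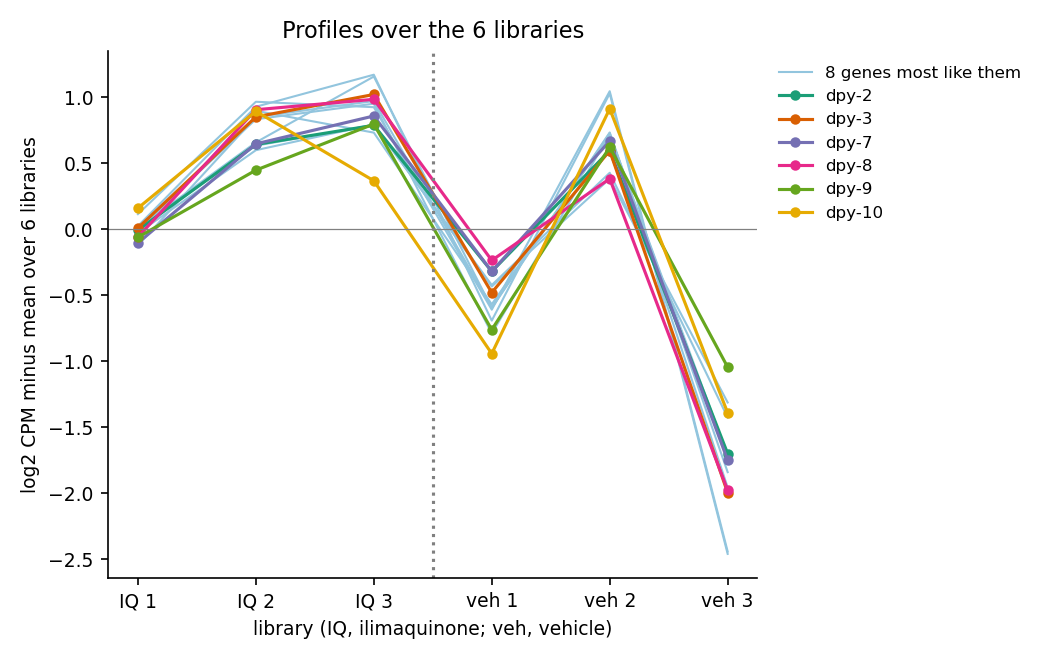
Log2 CPM minus its mean over the 6 libraries, for the 6 furrow collagens (marked lines) and the 8 genes most like them (thin lines), ilimaquinone replicates left and vehicle replicates right of the dotted line. The lines run together, with vehicle replicate 3 at the bottom and vehicle replicate 2 at the height of the ilimaquinone libraries.

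Genes of the moult were among those with this pattern. Of 19 listed genes for moulting and the apical matrix that precedes the cuticle, 11 had an r over 0.9 with the furrow collagens and the list's median r was 0.957. They include noah-1 and noah-2, which encode zona pellucida domain proteins of the matrix, fbn-1, a fibrillin-like matrix gene, mlt-9, and the lipocalin gene lpr-3. Of these 19 genes, 13 were lowest in vehicle replicate 3, as were 6 of 6 furrow collagens and 16.4% of all tested genes. With ilimaquinone 0 of 19 were called in edgeR and 0 in DESeq2, and 2 were higher in edgeR at an unadjusted p under 0.05. In edgeR without vehicle replicate 2, 1 was called, against 0.836% of tested genes in either direction. The list's median log2 fold change was 0.56. The member with the smallest p was ptr-4, a patched-related gene needed for moulting, at 126 ± 13.4 CPM with ilimaquinone and 74.3 ± 30.7 CPM with vehicle (SD, n = 3 each; edgeR adjusted p = 0.188).

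Known regulators of cuticle genes were compared next. Among 16 listed regulators, 2 had an r over 0.9 with the furrow collagens, lin-42 and myrf-1, which encodes a membrane-bound transcription factor. nhr-23, a nuclear receptor that drives moulting genes, averaged 38.6 ± 3.80 CPM with ilimaquinone and 40.1 ± 5.92 CPM with vehicle (SD, n = 3 each), or -0.05 ± 0.14 as log2 fold change (edgeR adjusted p = 0.839). blmp-1, a zinc-finger regulator of the same cycle, averaged 60.8 ± 5.71 CPM with ilimaquinone and 42.9 ± 12.8 CPM with vehicle (edgeR adjusted p = 0.23). In the vehicle group, the highest library had 1.35 times the nhr-23 level and 1.80 times the blmp-1 level of the lowest, against 4.35 times for the summed furrow collagens. In edgeR and in DESeq2 0 of the 16 were called, in edgeR 1 was lower at an unadjusted p under 0.05, and the median log2 fold change was 0.20. That 1 was lin-29, a zinc-finger gene of the change from larva to adult, at -0.45 ± 0.18 (edgeR adjusted p = 0.219).

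Other collagens that shape the body shared the pattern in part. Vehicle replicate 3 was the lowest library for 11 of 14, against 16.4% of all tested genes. Of 14 such genes, 3 had an r over 0.9: rol-8 (0.971), sqt-3 (0.922) and sqt-2 (0.902). dpy-13 had 90.3, 117 and 154 CPM with ilimaquinone, against 74.6, 45.6 and 21.2 CPM with vehicle. dpy-5 had 64.4, 83.9 and 102 CPM with ilimaquinone, against 54.3, 38.2 and 16.4 CPM with vehicle. In both genes the groups did not overlap, and within the vehicle group replicate 1 was highest, not replicate 2.

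That vehicle order was the common one in the list. A higher level in vehicle replicate 1 than in vehicle replicate 2 was found for 12 of 14 other body-shape collagens, 0 of 6 furrow collagens and 47.6% of all tested genes. In edgeR 0 of 14 were called, 4 were higher at an unadjusted p under 0.05, and DESeq2 called 4 higher, where it called 5.21% of all its tested genes higher. The list's median log2 fold change was 0.97. dpy-13 was at 1.35 ± 0.44 (edgeR adjusted p = 0.166), dpy-5 at 1.20 ± 0.41 (0.177), dpy-4 at 1.27 ± 0.41 (0.168) and rol-6 at 1.48 ± 0.53 (0.185), all edgeR adjusted p-values. Without vehicle replicate 1, edgeR called 2 of the 14 higher, dpy-13 among them (adjusted p = 0.0474), and 2.68% of all tested genes.

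These collagens were also set against the furrow collagens within each library. As a percentage of the summed furrow collagen CPM, rol-6 was 38.7%, 31.9% and 33.4% with ilimaquinone, against 34.6%, 15.2% and 14.6% with vehicle. dpy-13 averaged 62.7 ± 7.26% with ilimaquinone and 48.7 ± 29.1% with vehicle, and dpy-5 averaged 43.7 ± 4.88% and 36.98 ± 19.9% in the same groups. For all 3 genes the ranges of the groups overlapped. With 3 libraries against 3 an exact permutation test cannot give a p below 0.1, so these ratios are given as values only.

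Collagens of the adult stage gave fold changes in both directions. Of 4 such genes, among them bli-1 and bli-2 of the list above, 0 were called in edgeR and 0 in DESeq2, and 1 was lower in edgeR at an unadjusted p under 0.05. The log2 fold change was 0.50 for col-7, -0.47 for bli-1, -1.12 for bli-2 and -2.10 for col-19, and the median log2 fold change was -0.79. The gene past the unadjusted threshold was col-19, which is switched on at the last moult, at 6.17, 9.53 and 18.1 CPM with ilimaquinone, against 103, 17.03 and 24.8 CPM with vehicle (edgeR adjusted p = 0.183). Its high value lay in vehicle replicate 1, the library with the most germline RNA, and without that library the log2 fold change was -0.90, against -2.10 with it.

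Genes that modify, trim and cross-link collagen were tested as the machinery that the furrow collagens pass through. Of 18 listed, 0 were called in edgeR, and the median log2 fold change was 0.36. At an unadjusted p under 0.05, 8 were higher and 3 lower, against 21.9% of tested genes in either direction. DESeq2 called 6 higher and 2 lower, against 10.5% of its tested genes in either direction. Without vehicle replicate 1 edgeR called 3 higher, against 2.68% of all tested genes. doxa-1, a maturation factor of the oxidase that cross-links cuticle collagen, averaged 13.1 ± 1.04 CPM with ilimaquinone and 7.85 ± 0.617 CPM with vehicle (SD, n = 3 each), or 0.74 ± 0.15 as log2 fold change (edgeR adjusted p = 0.0707). bli-3, that oxidase, was at 0.55 ± 0.13 (edgeR adjusted p = 0.106).

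The groups did not overlap for doxa-1 or bli-3. dpy-18, a subunit of the collagen prolyl hydroxylase, averaged 282 ± 37.9 CPM with ilimaquinone and 226 ± 51.3 CPM with vehicle, and dpy-31, a collagen-trimming protease, averaged 157 ± 8.26 CPM with ilimaquinone and 138 ± 17.5 CPM with vehicle. Both overlapped between the groups, with edgeR adjusted p-values of 0.339 and 0.362. The deposited dpy-31 locus overlaps rpl-36 and exos-9. None of the 18 had an r over 0.9 with the furrow collagens.

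The 3 responses known to follow loss of furrow collagens were examined next, and their listed genes gave different counts. Of 13 listed outputs of SKN-1, the transcription factor of the detoxification response, 3 rose in edgeR, where 1.14% of tested genes rose. DESeq2 called 7 of 13 higher, against 5.21% of its tested genes. The list was chosen with earlier results of these data known, among them those of gst-4, gst-7 and nit-1. Its counts against these shares are therefore a description and no separate evidence. Without vehicle replicate 1, 2 or 3 edgeR called 5, 6 or 1 higher, against 4.31%, 0.836% or 0.673% of tested genes in either direction. Without ilimaquinone replicate 1, 2 or 3 it called 1, 1 or 0, against 0.106%, 0.141% or 0.0648% of tested genes in either direction. The median log2 fold change was 0.90. gst-4, a glutathione S-transferase gene that is the standard reporter of SKN-1, had 50.8, 39.8 and 46.2 CPM with ilimaquinone, against 14.9, 13.7 and 14.2 CPM with vehicle. The groups lay far apart, and the log2 fold change was 1.68 ± 0.13 (edgeR adjusted p = 0.00541). Without ilimaquinone replicate 3 the adjusted p of gst-4 was 0.0617, and the deposited gst-4 locus overlaps that of dhs-12.

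The other 2 that rose were gst-7, also a glutathione S-transferase gene, and the nitrilase gene nit-1. gst-7 averaged 142 ± 9.82 CPM with ilimaquinone and 66.8 ± 10.1 CPM with vehicle (edgeR adjusted p = 0.0215), and nit-1 averaged 86.5 ± 7.50 CPM with ilimaquinone and 45.4 ± 3.80 CPM with vehicle (edgeR adjusted p = 0.0179; SD, n = 3 each). Both lost the call when any 1 of the ilimaquinone libraries or vehicle replicate 3 was left out, with adjusted p-values of 0.0519 to 0.15 for gst-7 and 0.055 to 0.141 for nit-1. Of the regulators, skn-1 itself was at 0.30 ± 0.11 (edgeR adjusted p = 0.186), and wdr-23, which marks SKN-1 for destruction, was at -0.04 ± 0.30 (edgeR adjusted p = 0.94).

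The outputs of the glycerol response were called by DESeq2 for 1 gene and by edgeR for none. Of the 3 outputs 0 were called in edgeR, 2 were lower at an unadjusted p under 0.05, and the median log2 fold change was -0.44. DESeq2 called gpdh-1 lower (adjusted p = 0.0467), against 10.5% of its tested genes in either direction. gpdh-1, the glycerol 3-phosphate dehydrogenase gene that responds to osmotic stress, had 18.9, 13.3 and 25.2 CPM with ilimaquinone, against 76.7, 27 and 31.03 CPM with vehicle. Its groups did not overlap, its high value was in vehicle replicate 1, and the edgeR adjusted p was 0.186. The log2 fold change of gpdh-1 was -1.23 ± 0.44, or -0.60 without vehicle replicate 1. hmit-1.1, a myo-inositol transporter gene of the same response, averaged 22.7 ± 2.44 CPM with ilimaquinone and 30.9 ± 6.44 CPM with vehicle (edgeR adjusted p = 0.214). The remaining output, gpdh-2, went the other way, with 173 ± 19.7 CPM under ilimaquinone against 149 ± 48.5 CPM under vehicle. Both groups overlapped for gpdh-2, and the fitted difference was 0.21 ± 0.22 in log2 units (edgeR adjusted p = 0.592). When vehicle replicate 1 was left out, 1 of the 3 outputs was higher and 0 were lower in edgeR at an unadjusted p under 0.05.

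Of 9 regulators of the glycerol response, 1 rose in edgeR, where 1.14% of tested genes rose: ogt-1, the O-GlcNAc transferase gene. It had 276, 283 and 267 CPM with ilimaquinone, against 173, 187 and 169 CPM with vehicle, or 0.65 ± 0.08 as log2 fold change (edgeR adjusted p = 0.0272). With any 1 of the ilimaquinone libraries or vehicle replicate 3 left out its adjusted p was 0.055 to 0.182, so the call was lost. osm-8, a secreted mucin-like gene whose loss switches on the glycerol response, was low, at 2.23, 3.68 and 4.63 CPM with ilimaquinone and 2.12, 5.35 and 0.45 CPM with vehicle. Its r with the furrow collagens was 0.966, the only one over 0.9 in this list.

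Among the epidermal antimicrobial peptides, calls were made in both directions. Of 16 listed genes 15 were tested, of which 1 rose and 1 fell in edgeR, against 1.14% and 0.327% of tested genes, and the median log2 fold change was 0.11. DESeq2 called 1 higher and 3 lower, against 10.5% of its tested genes in either direction. The same counts came from edgeR without vehicle replicate 1, against 4.31% of tested genes in either direction. nlp-29, the standard reporter of epidermal damage, had 109, 109 and 100.4 CPM with ilimaquinone, against 134, 150.1 and 144 CPM with vehicle. The groups did not overlap, but nlp-29 was not called (log2 fold change -0.43 ± 0.09, edgeR adjusted p = 0.0762). Under 3 of the alternatives it was called lower, with adjusted p-values of 0.00194 in DESeq2, 0.0477 in edgeR with a stricter filter and 0.024 in edgeR without vehicle replicate 1. cnc-11 rose to 6.55 ± 0.11 CPM with ilimaquinone, against 2.13 ± 0.335 CPM with vehicle (SD, n = 3 each; edgeR adjusted p = 0.0221), and cnc-2 fell to 12.8 ± 0.475 CPM with ilimaquinone, against 23.8 ± 3.27 CPM with vehicle (edgeR adjusted p = 0.0398).

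Both peptide calls were lost when any 1 of the ilimaquinone libraries was left out, and that of cnc-2 also without vehicle replicate 2 or 3. Among 13 genes of the signalling that controls these peptides, 0 were called in edgeR. At an unadjusted p under 0.05, 3 were higher and 1 lower, against 21.9% of tested genes in either direction. DESeq2 called 1 lower, against 10.5% of its tested genes in either direction. dcar-1, the receptor that senses cuticle damage, was at 0.41 ± 0.15, sta-2, the transcription factor at its end, at 0.39 ± 0.19, and tir-1, an adaptor of its kinase cascade, at -0.39 ± 0.09, with edgeR adjusted p-values of 0.186, 0.267 and 0.092.

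Across the vehicle libraries, where no compound was present, the summed furrow collagens differed in spread from gst-4, nlp-29 and gpdh-1. The summed furrow collagen CPM of vehicle replicate 2 was 4.35 times that of vehicle replicate 3. In the same pair of libraries gst-4 stood at 0.968 times, nlp-29 at 1.04 times and gpdh-1 at 0.87 times. The highest vehicle library had 1.09 times the lowest for gst-4, 1.12 times for nlp-29 and 2.84 times for gpdh-1, whose highest library was replicate 1. With 3 vehicle libraries no relation between these levels was tested.

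**Figure D5:**
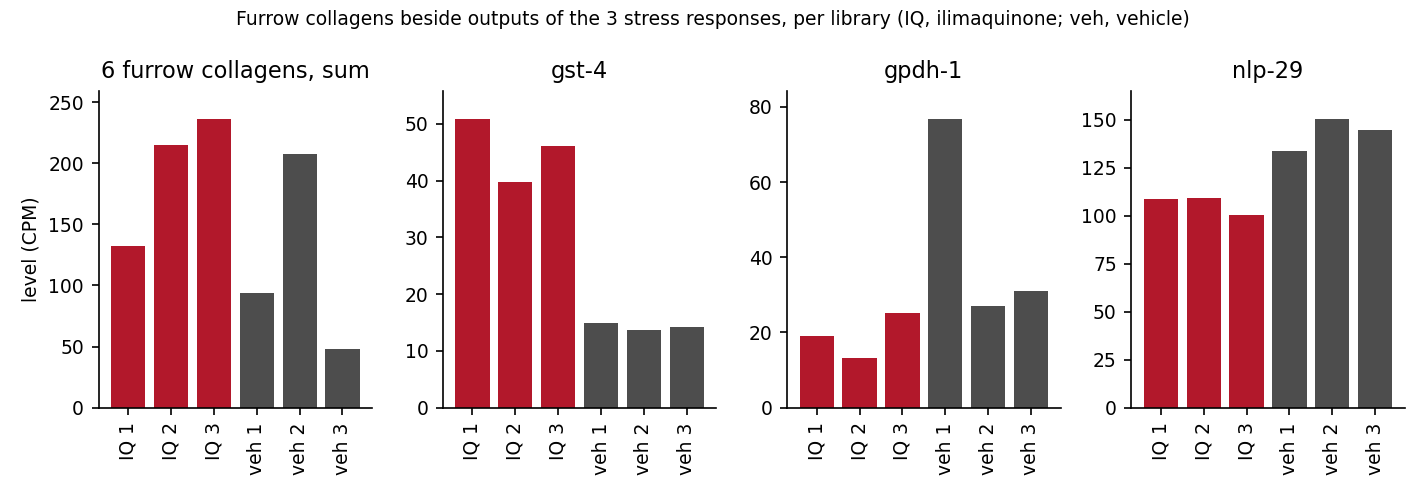
CPM of the summed furrow collagens and of gst-4, nlp-29 and gpdh-1 in each library, ilimaquinone left and vehicle right. The furrow sum spans 47.7 to 207 CPM in the vehicle libraries, where gst-4 stays between 13.7 and 14.9 CPM, and gst-4 is above that in all 3 ilimaquinone libraries.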

How the data were processed

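Titles of the samples gave groups and replicate numbers. A stranded poly(A) kit was used for every library, per the labels' protocols. HISAT2 2.1.0, SAMtools 1.9 and bcl2fastq 2.20.0 are named, with build WBcel235, in the submitters' processing notes. For the counting program and its strand setting, the sources used here give nothing. For each gene and transcript the authors deposited whole-number estimated counts, FPKM and TPM, per the file headers. The test was planned for read counts and kept for estimated counts, which needed no rounding. Deposited TPM gave levels between genes, and deposited FPKM served as an alternative.

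Counts were tested in R 4.3.3 with edgeR 4.0.16 (filterByExpr with a minimum count of 10, TMM, quasi-likelihood test, no covariate, Benjamini-Hochberg over all tested genes, threshold 0.05), tested first on simulated data. CPM values use TMM-scaled totals, values are mean ± SD, and SE is the fold change over the square root of F. The smallest chi-square per gene between libraries, 28.1, showed no duplicate. Replicate numbers did not pair the libraries.

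The members and gene lists were chosen with earlier results of these data known. Named genes are all members, 17 genes of the pathways set by name, the called members of each list with the smallest p (up to 4 in each direction, or else the member with the smallest p) and the 8 genes most like the members. gst-4, gst-7, nit-1 and others were known from those results. T14B4.19, glb-16, osm-8, rol-8, sqt-2, sqt-3, myrf-1 and the moulting genes named for their r were chosen after their values were seen. Likeness used log2 CPM with a prior count of 2. Alternatives were DESeq2 1.42.0, other scalings and filters, limma-trend (limma 3.58.1) on log2(TPM + 1), a replicate block and each library left out. Exons come from the Ensembl annotation on WBcel235.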

Additional observations from a re-analysis of the deposited data

How the results depend on the processing

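In 15 alternatives, none of the 6 furrow collagens passed the test or changed sign. Their shares of the summed level per length were kept under deposited FPKM and under CPM per length. Within a library these units differ from TPM by little more than a constant factor, so this is no separate test. With the replicate number as a block, their log2 fold changes were 0.78 to 1.18 and their adjusted p-values 0.275 to 0.434, and the block left 21 genes higher, 1 lower and 1 listed gene called, gst-4 (adjusted p = 0.0391). Without a filter on low counts gst-7 and cnc-2 were not called (adjusted p = 0.0507 and 0.0759). The numbers do not pair the libraries: deviations from the group means correlated at -0.161, 0.288 and -0.161 for numbers 1, 2 and 3, and 2 of 6 libraries correlated best with their own number. The background counts of 188 higher and 54 lower genes moved most. DESeq2 called 889 higher and 898 lower, no filter on low counts left 60 and 9, and a stricter filter gave 94 lower. Leaving out 1 library gave 11 to 451 higher (451 without vehicle replicate 1, 11 without ilimaquinone replicate 3) and 0 to 274 lower. Over the lists other than the markers of germline, embryo, muscle, intestine and neurons, 6 genes were called, against 27 with DESeq2, 10 with limma-trend and 0 to 15 with 1 library left out. Of the 8 genes most like the members, 1, 4, 2, 0, 0 and 0 were again among the first 8 when ranked by dpy-2, dpy-3, dpy-7, dpy-8, dpy-9 or dpy-10 alone, 3 without vehicle replicate 1, and 5 with the counts of dpy-10 and T14B4.19 added. The cause of these shifts was not tested. Each group had 3 libraries, and the vehicle spread was 3.18 to 6.04 times for the members. Differences smaller than about the distance from an estimate to the end of its interval therefore cannot be resolved.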

Other observations

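Of 10 genes for the attachment of the epidermis to cuticle and muscle, 0 were called in edgeR. At an unadjusted p under 0.05, 4 were higher, against 21.9% of tested genes in either direction. DESeq2 and limma-trend each called 1 higher, where DESeq2 called 5.21% of its tested genes higher. The median log2 fold change was 0.28. pat-12, an attachment gene, had the smallest p, at 149 ± 5.17 CPM with ilimaquinone and 110.2 ± 18.9 CPM with vehicle (SD, n = 3 each; edgeR adjusted p = 0.162). None of the 10 had an r over 0.9 with the furrow collagens.

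Of 20 germline and oocyte markers 0 were called in edgeR. At an unadjusted p under 0.05, 17 were lower, against 21.9% of tested genes in either direction. DESeq2 called 13 lower, against 10.5% of its tested genes in either direction. The median log2 fold change was -1.59, or -0.64 without vehicle replicate 1. Of 10 embryo and hatching markers 4 were abundant enough to test, with a summed level of 21.2 to 24.2 CPM with ilimaquinone and 17.4 to 50.8 CPM with vehicle, and edgeR called 0 of them. DESeq2 called 1 of them lower, against 10.5% of its tested genes in either direction. When vehicle replicate 1 was left out edgeR called 1 higher, against 2.68% of all tested genes. The genes vet-2, pes-10, end-1, end-3, tbx-37 and tbx-38 had 0 to 16 counts in any library. Summed marker levels were 3786 to 4003 CPM with ilimaquinone and 3139 to 4289 CPM with vehicle for 8 muscle genes, 2576 to 2862 CPM with ilimaquinone and 2697 to 3504 CPM with vehicle for 8 intestine genes, and 2165.6 to 2382 CPM with ilimaquinone and 1374 to 2312 CPM with vehicle for 9 neuron genes. In these 3 lists edgeR called 0 genes, and DESeq2 called 1 neuron gene higher, where it called 5.21% of all its tested genes higher. Among the vehicle libraries, these sums were not ordered as the furrow collagens were: the lowest muscle, intestine and neuron sums were in replicate 1, and the lowest furrow sum was in replicate 3. The summed epidermal attachment genes had 1604, 1930 and 2329 CPM in vehicle replicates 1, 2 and 3, and were thus highest in replicate 3. The part of tissue composition in the furrow collagen values was not tested.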
